A study of Danio rerio with 5 samples.

Results

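The cells compared here were single cells sorted as cardiomyocytes of the border zone, the muscle that adjoins a wound of the heart. They were isolated 7 days post-cryo-injury (dpci) and divided by whether a transcript of nppa was found in them. The zebrafish were of the TL strain and carried the TgBAC(nppa:mCitrine) reporter, in which the nppa regulatory region drives a fluorescent protein. A copper probe cooled in liquid nitrogen froze the tip of the ventricle, and dissociated cells were sorted on mCitrine into 384-well plates, 1 cell per well, so that both groups came from the same sorted, injured ventricles and no uninjured heart was included. SORT-seq, a plate form of CEL-Seq2, tagged each captured molecule with a well barcode and a unique molecular identifier (UMI). The series held 1 plate at 1 dpci, 1 at 3 dpci and 3 at 7 dpci. The labels give no age and do not tie fish to plates, so p-values measure the spread between plates, which may be technical.

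Wells of 7 dpci with at least 1000 UMIs outside the ERCC spike-ins were kept as cells. Each cell was thinned at random to 1000 UMIs, and the groups were chosen by the nppa UMIs (ENSDARG00000052960) among those 1000: at least 1 UMI for nppa-detected cells and none for nppa-absent cells. There were 94 detected and 419 absent cells, 513 in all of the 1037 cells of this depth in the series. Plate 1 gave 21 detected and 83 absent cells, plate 2 gave 32 and 175, and plate 3 gave 41 and 161. The detected share was 20.2%, 15.5% and 20.3% of the cells of plates 1 to 3, and 18.3% over all 513 cells (exact 95% interval 15.1 to 21.9%, counting error only).

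nppa and its neighbour nppb encode natriuretic peptides, hormones made by heart muscle cells under stretch, which act on guanylyl cyclase receptors to lower blood pressure and cardiac load. In the embryonic heart nppa marks the working chamber myocardium, and in the injured adult zebrafish heart it is switched on again in the border zone, where cardiomyocytes return to a less mature state and divide. Fluorescent proteins are long-lived, so a cell can be sorted on mCitrine while it holds few nppa transcripts.

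Most cells sat at the threshold. Of the 94 detected cells, 69 held a single nppa UMI and 25 held 2 or more, and the 419 absent cells held none. The highest count in a cell was 5 on plate 1, 9 on plate 2 and 5 on plate 3. The mean was 0.308, 0.256 and 0.292 nppa UMIs per 1000 on plates 1 to 3, and the variance was 1.96, 2.87 and 1.77 times the mean, where pure counting noise gives a ratio of 1. Both groups were therefore defined mostly by the presence or absence of 1 molecule.

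**Figure D1:**
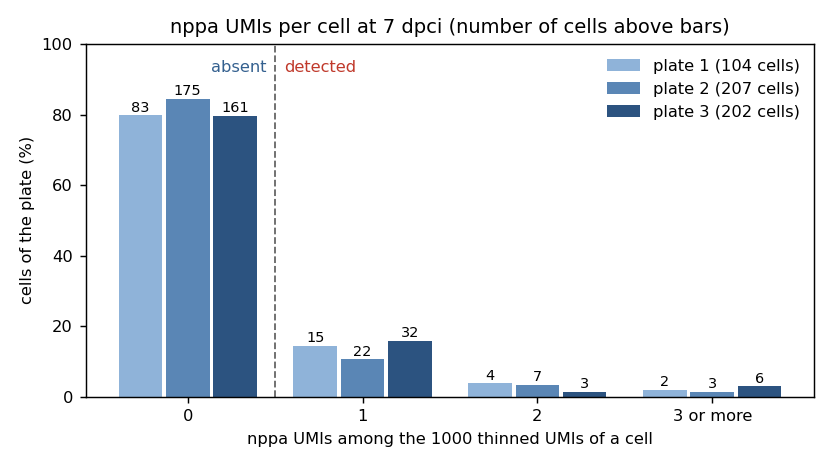
Share of the cells of each 7 dpci plate (%) with 0, 1, 2 or at least 3 nppa UMIs among 1000, with the number of cells above each bar. The dashed line is the border between absent and detected cells, and 69 of the 94 detected cells stand directly to its right with 1 UMI.

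The grouping depended on which 1000 UMIs were drawn. Before thinning, 33, 77 and 79 cells of plates 1 to 3 held nppa, so 95 of the 419 absent cells (22.7%) had nppa outside their 1000 UMIs. In 20 other draws the number of detected cells ranged from 17 to 26 on plate 1, from 30 to 44 on plate 2 and from 33 to 49 on plate 3. Of the 94 detected cells, 66 were also detected in at least 10 of the 20 draws and 9 in all 20.

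The UMIs that thinning left over were not used by the grouping, and they held more nppa in the detected cells on each plate. They were summed over cells without equal depth, here and below, so that deeper cells weigh more in them. Among cells of at least 2000 UMIs, the left-over UMIs held 6.82, 4.35 and 6.26 nppa UMIs per 10000 in the detected cells of plates 1 to 3, and 3.59, 2.19 and 1.52 in the absent cells. The lowest detected value lay above the highest absent value. The difference was 3.38 ± 1.30 per 10000 (SD, n = 3 plates) and was positive on 3 of 3 plates (exact paired permutation test, two-sided p = 0.25, the smallest that 3 plates allow). nppa was found again in the left-over UMIs of 66.1% ± 2.58 of the detected cells and 32.1% ± 4.35 of the absent cells (SD, n = 3 plates; exact p = 0.25).

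**Figure D2:**
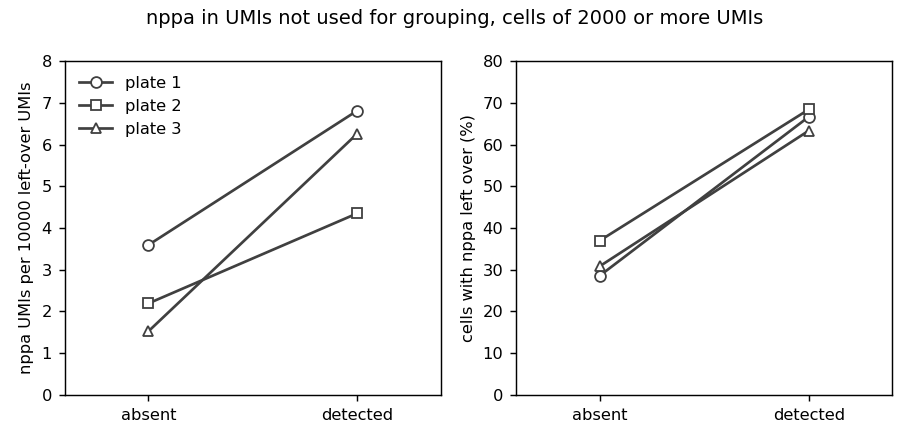
nppa in the UMIs not used to group the cells, for cells of at least 2000 UMIs, with 1 line per plate from absent to detected cells. Left, nppa UMIs per 10000 left-over UMIs, where the detected cells lie at 4.35 to 6.82 and the absent cells at 1.52 to 3.59. Right, the share of cells with nppa in the left-over UMIs (%), 63.3 to 68.4 in detected and 28.6 to 36.97 in absent cells.

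The earlier plates, with 1 plate each and so no test, had more nppa. At 1 dpci 45.2% and at 3 dpci 37.3% of cells were detected at the same depth, and the left-over UMIs held 18.5 and 15.1 nppa UMIs per 10000 in the detected cells against 2.98 and 3.62 in the absent cells. Free RNA in the sort can leave UMIs in cells that do not make a transcript. Cells with at least 500 nuclear UMIs among their 1000 and under 2% of these from cardiomyocyte markers gave the background: nppa was found in 1 of 22 such cells at 1 dpci (4.55%, with an exact 95% interval from 0.115 to 22.8%) and in 0 of 14 at 3 dpci, which allows a share of up to 21.4% by a limit of 3 counts (exact interval up to 23.2%). The median depth before thinning was 15394 and 7406 UMIs in those cells and 3065 and 2602 in the other cells of the plates. At 7 dpci only 3 cells were of this kind and none had nppa. Wells under 100 UMIs held no nppa UMI on any plate, but they summed to only 3047, 2360 and 2522 UMIs on the 7 dpci plates. The upper bounds of 22.8% and 23.2% lie above the 18.3% of cells detected at 7 dpci. With 14 cells the bound could not fall under 18.3% even with 0 found, and both bounds are from plates of other times with more nppa. These cells therefore do not tell whether the background of free nppa at 7 dpci lay below the detected share.

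Both groups were mostly cardiomyocytes by their transcripts. Markers of cardiomyocytes, among them MYL7, cmlc1, TNNT2, tnnc1a and actc1a, made up 21.9% ± 0.281 of nuclear UMIs in detected cells and 23.2% ± 0.865 in absent cells (SD, n = 3 plates), lower in the detected cells on 3 of 3 plates (exact p = 0.25). On plate 3 the gap (21.8% against 22.3%) was smaller than that of MYL7 alone, whose values are given below. The other markers together were not lower on that plate. Markers of other cell types were near 0: endothelial or endocardial markers summed to 9 UMIs over the detected and 8 over the absent cells, epicardial or fibroblast markers to 8 and 88, macrophage markers to 19 and 44, and smooth muscle or mural markers to 39 and 121. Of the IDs on those lists, 9 of 16, 11 of 19, 16 of 28 and 9 of 15 had no UMI, among them 3, 3, 7 and 5 that were not counted at all on any plate of the series. Lymphocyte, erythrocyte, neutrophil and thrombocyte markers gave at most 7 UMIs in a group of a plate. The share of epicardial or fibroblast markers, mostly keratin genes, was lower in detected cells on 3 of 3 plates (0.0104% against 0.0261%). The sums above cover more absent than detected cells. As mean shares, endothelial or endocardial markers were 0.0128% in detected against 0.00197% in absent cells. Macrophage markers were 0.0202% against 0.0126%, and smooth muscle or mural markers 0.0488% against 0.0374%. They were higher in detected cells on 2, 1 and 2 of 3 plates. The 16 macrophage UMIs among the detected cells of plate 2 came from 1 cell, which also held 83 cardiomyocyte marker UMIs and 2 of nppa. Among the absent cells, 1 cell held 9 of the 11 macrophage UMIs of plate 1, with 7 cardiomyocyte marker UMIs. On plate 3, 1 absent cell held 24 of the 33, with 13 cardiomyocyte marker UMIs. The part of these cells in the results below was not tested.

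At equal depth the detected cells were slightly richer in genes. The median number of genes seen in 1000 UMIs was 330, 355.5 and 359 in detected cells and 319, 334 and 337 in absent cells of plates 1 to 3, a difference of 18.2 ± 6.21 (SD, n = 3; exact p = 0.25). With mitochondrial genes left out before thinning it was 18.8 ± 17.3 and positive on 2 of 3 plates (exact p = 0.5). The median depth before thinning was 1718, 2746 and 2893 UMIs against 1621, 2730 and 2501, higher on 3 of 3 plates by 168 ± 198 (exact p = 0.25). ERCC spike-ins took a median of 44.4% ± 8.73 of the UMIs in detected and 45.7% ± 8.99 in absent wells.

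The mitochondrial genome supplied fewer of the 1000 UMIs in detected than in absent cells when means were compared, but not when medians were. The mean was 57.2, 52.9 and 59.2 mitochondrial UMIs per 1000 in the detected cells of plates 1 to 3, and 103.9, 114.9 and 107.2 in the absent cells. Among single transcripts, MT-ATP6, a subunit of the ATP synthase, gave 4.67, 5.41 and 5.66 UMIs per 1000 in detected and 10.3, 10.2 and 9.61 in absent cells, and MT-CO1, a subunit of cytochrome c oxidase, gave 4.10, 3.41 and 4.59 against 5.10, 7.50 and 6.43. In all, 13 of 15 mitochondrial IDs were lower in detected cells on 3 of 3 plates. The medians were 29, 19.5 and 36 in detected and 25, 31 and 25 in absent cells, with no common direction. Over 300 mitochondrial UMIs among the 1000 were held by 39 of 419 absent cells (9.31%, exact 95% interval 6.70 to 12.5%) and by 2 of 94 detected cells (2.13%, 0.259 to 7.48%). Both intervals pool the cells of 3 plates and cover counting error only. By plate, 6, 20 and 13 absent cells and 1, 1 and 0 detected cells were above 300. Without these cells the means were 35.8, 38.1 and 59.2 in detected and 52.4, 45.97 and 43.4 in absent cells, lower in detected cells on plates 1 and 2 and higher on plate 3, and the difference went from -52.2 ± 8.43 to -2.93 ± 16.7 per 1000 (SD, n = 3; exact p = 0.75).

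These values are not independent of the grouping, since mitochondrial UMIs take up places among the 1000 in which nppa had to be found. When mitochondrial genes were left out first, cells had to hold 1000 nuclear UMIs. Grouped anew at that depth there were 98 detected and 366 absent cells, of which 2 and 6 were over 30% mitochondrial UMIs, against 2 and 39 before, so the change of depth and the loss of cells rich in mitochondrial UMIs cannot be told apart. The mean mitochondrial share of a cell was then 7.05%, 4.66% and 5.43% in detected and 4.07%, 5.90% and 4.29% in absent cells. The difference was 0.962 ± 2.12 percentage points (SD, n = 3; exact p = 0.75), against -5.19 ± 0.754 (exact p = 0.25) for the groups as defined.

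**Figure D3:**
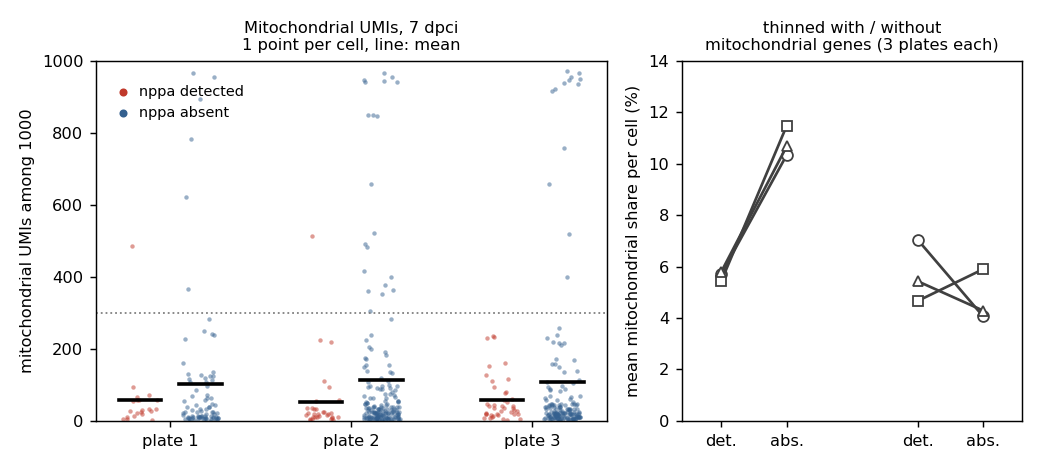
Left, mitochondrial UMIs among the 1000 of each 7 dpci cell by plate and group, with black lines at the means (52.9 to 59.2 in detected, 103.9 to 114.9 in absent cells) and a dotted line at 300, above which lie 2 detected and 39 absent cells. Right, mean mitochondrial share per cell (%), 1 line per plate from detected (det.) to absent (abs.) cells, when the 1000 UMIs include mitochondrial genes (left trio) and when they do not (right trio). The right trio holds 6 absent cells over 30% mitochondrial UMIs, the left trio 39, and the lines of the right trio do not share a direction.

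Nuclear genes were compared by summing the thinned UMIs of each group on each plate, 6 sums in all, and fitting edgeR's quasi-likelihood model with the plate as a block to the 648 genes with at least 60 UMIs. nppa and the mitochondrial genes were left out. Few genes separated the groups: 2 genes (0.309% of those tested) passed an adjusted p of 0.05, both lower in detected cells, and 0 (0%) were higher. At an unadjusted p under 0.05, 20 genes (3.09%) were higher and 21 (3.24%) lower, and DESeq2 called 0 higher and 3 lower. Levels were higher in detected cells on 3 of 3 plates for 80 genes (12.3%) and lower on 3 of 3 for 107 (16.5%).

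Both called genes were IDs without a name in the table used here. ENSDARG00000096145 gave 24.3, 29.1 and 47.5 UMIs per 10000 nuclear UMIs in detected cells of plates 1 to 3 and 41.01, 42.03 and 74.6 in absent cells. It was lower on each plate, although the ranges of the groups overlap because plate 3 was high in both. Its log2 fold change was -0.62 ± 0.11 (SE, edgeR adjusted p = 0.02003, n = 3 plates). ENSDARG00000070212 gave 76.9, 61.8 and 78.2 per 10000 in detected and 103, 79.8 and 138 in absent cells, again lower on each plate, with a log2 fold change of -0.54 ± 0.10 (edgeR adjusted p = 0.02003).

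Neither call was stable. Without plate 1 no gene passed, and both genes had an edgeR adjusted p of 0.830, and without plate 3 their adjusted p was 0.104 and 0.223. In the 20 other draws of the same cells ENSDARG00000096145 was lower in 20 and called in 1, and ENSDARG00000070212 was lower in 19 and called in 2. In the left-over UMIs the log2 fold changes were -0.22 and -0.59 (adjusted p = 1.00 and 0.318). At equal nuclear depth they were -0.32 and 0.05 (adjusted p = 0.807 and 0.974), so that the second lost its direction. Other settings called other genes, which are named here after their values were seen. MYL7 (lower) was called without plate 2, at 500 UMIs, at a filter of 20 UMIs and by DESeq2, and si:ch73-308b14.1 (lower) at a filter of 20 UMIs. krt18a.1, an epithelial and epicardial keratin, was called lower without thinning and in the left-over UMIs, which held 2 of its UMIs in detected cells and 80, 1 and 216 in absent cells of plates 1 to 3 (log2 fold change -5.30, adjusted p = 0.0153). In both settings deep cells weigh more. An absent cell of plate 1 had 33613 UMIs and 1 of plate 3 had 23976, with 93 and 28 cardiomyocyte marker UMIs among their 1000. Which cells held the krt18a.1 UMIs was not tested. si:dkey-238c7.12 was called higher without plate 3 (3.68, adjusted p = 6.6e-05) and at a filter of 20 UMIs on all plates (2.15, adjusted p = 0.000732). It gave 31 and 25 UMIs in detected against 14 and 5 in absent cells of plates 1 and 2, but 1 against 29 on plate 3.

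**Figure D4:**
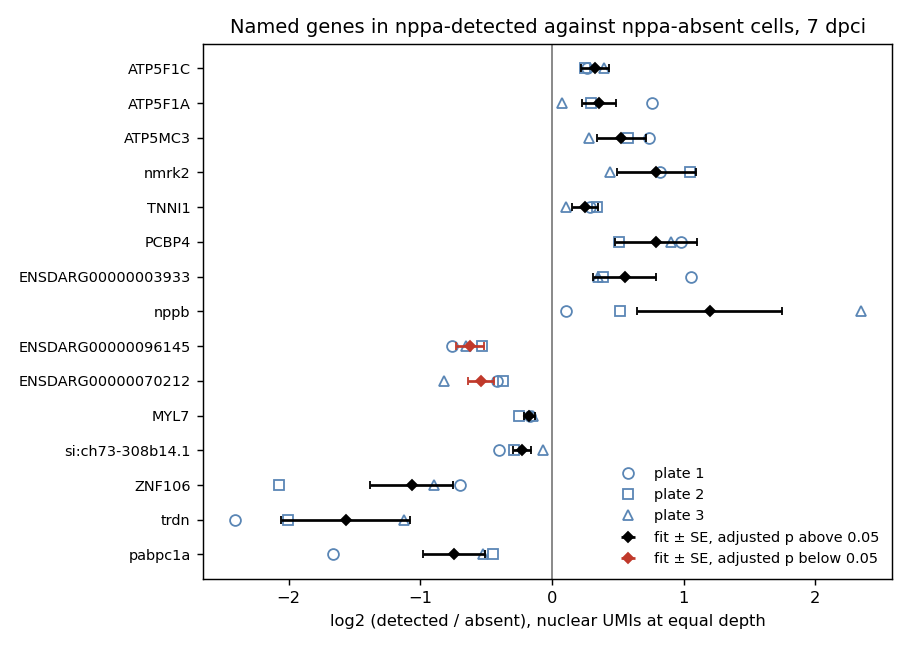
log2 ratio of detected to absent cells for the 7 genes higher and the 7 lower on 3 of 3 plates with the lowest p, and nppb. Open symbols are the 3 plates, diamonds the fitted log2 fold change ± SE. The 2 red diamonds, at -0.62 and -0.54, are the genes that passed the test, and all other genes shown did not pass.

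Among natriuretic peptide genes only nppb had enough UMIs to be tested. It gave 2, 7 and 15 UMIs in the detected cells of plates 1 to 3 and 7, 25 and 11 in the absent cells, which is 1.01, 2.31 and 3.89 per 10000 against 0.941, 1.61 and 0.765. Detected cells were higher on each plate, by little on plate 1 and most on plate 3. The log2 fold change was 1.197 ± 0.55 and did not pass the test (edgeR adjusted p = 0.770). It was positive in 19 of the 19 draws in which nppb reached the filter (0.18 to 1.67), 0.93 in the left-over UMIs and 1.04 at equal nuclear depth, but 0.39 without plate 3. On the earlier plates the log2 ratio of nppb was -0.57 at 1 dpci (95% interval -0.90 to -0.25, counting error only) and 1.48 at 3 dpci (0.93 to 2.05). In a RefSeq table of the zebrafish genome nppb lies next to nppa. The natriuretic peptide receptors and the processing enzyme FURIN had few UMIs where they were counted. NPR3, the clearance receptor, had 3, npr1a 2 and the 2 FURIN IDs 1 each, and nppc, another family member, had 1. npr1b, npr2 and CORIN were not analysed here.

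Genes linked to the border zone and to fetal-type cardiomyocytes had 13 tested IDs, of which 0 passed the test in either direction, 11 had a positive and 2 a negative log2 fold change, and 8 were higher on 3 of 3 plates. Over all 648 genes 335 were positive and 80 (12.3%) higher on 3 of 3. The median log2 fold change was 0.43, against 0.01 over all 648 genes. The draw mattered here: the 20 other draws gave medians of 0.04 to 0.37, all positive and all below the reported one, and the left-over UMIs gave 0.05. At 500 UMIs the median was 0.07, and without thinning 0.03. The list as a whole held 4.85%, 7.11% and 6.98% of nuclear UMIs in detected and 5.02%, 6.93% and 6.58% in absent cells of plates 1 to 3. This share was thus lower in detected cells on plate 1, but by less than MYH7 of this list alone, whose values follow below. The other IDs of the list together were not lower there. In the 20 other draws it was higher on 3 of 3 plates in 1 and lower on 3 of 3 in 0. FHL1, a LIM domain protein of the sarcomere, gave 10.6, 13.2 and 15.1 UMIs per 10000 in detected and 6.72, 12.98 and 9.53 in absent cells, with a log2 fold change of 0.43 ± 0.20 (edgeR adjusted p = 0.770), and was positive in 20 of 20 draws. TBX20, a transcription factor of the heart chambers, gave 2.53, 2.64 and 1.82 against 1.48, 1.68 and 1.04 (log2 fold change 0.74 ± 0.48, adjusted p = 0.833), positive in 15 of the 15 draws in which it was tested and 0.63 in the left-over UMIs. CRIP2, a LIM domain protein, was positive in 20 of 20 draws but -0.18 in the left-over UMIs.

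MYH7, a ventricular myosin heavy chain, ran against its list. It gave 59.7, 79.99 and 101 UMIs per 10000 in detected and 79.6, 99.1 and 112 in absent cells, lower in detected cells on each plate. The log2 fold change was -0.26 ± 0.08 (edgeR adjusted p = 0.565), it was negative in 20 of 20 draws (-0.51 to -0.09), -0.39 in the left-over UMIs and -0.51 at equal nuclear depth. In cells with at least 2 nppa UMIs it was -0.75. On the 1 dpci plate the log2 ratio had the other sign, 0.51 (0.39 to 0.64), and at 3 dpci it was 0.07 (-0.06 to 0.20). At 1 dpci 21 of the 22 cells low in cardiomyocyte markers were in the absent group, and these markers made up 14.8% of nuclear UMIs in detected and 12.97% in absent cells (16.5% and 16.3% at 3 dpci). The part of those cells in the ratio was not tested.

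The 16 tested sarcomere genes, which build the contractile apparatus, had a median of 0.02 with 0 called, and 10 were positive. Their summed share went the other way. Over all its IDs the list held 15.1%, 15.8% and 15.4% of nuclear UMIs in detected cells of plates 1 to 3. Absent cells held 16.5%, 16.9% and 16.03%, so the share was lower in detected cells on 3 of 3 plates. In the 20 other draws it was lower on 3 of 3 plates in 16 and higher on 3 of 3 in 0. MYL7 had the most UMIs of the list. MYL7, the atrial-type myosin light chain that zebrafish express in all cardiomyocytes, gave 892, 734 and 729 UMIs per 10000 in detected and 1004, 873 and 806 in absent cells. On plates 2 and 3 this gap was larger than that of the whole list. The other IDs of the list together were thus lower in detected cells on plate 1 only. MYL7 was lower on each plate, with a log2 fold change of -0.17 ± 0.04 that did not pass (edgeR adjusted p = 0.239), and it was negative in 20 of 20 draws but -0.02 in the left-over UMIs. TNNI1, the slow-type troponin I, gave 48.1, 73.7 and 70.6 against 39.3, 58.3 and 65.5 (0.25 ± 0.10, adjusted p = 0.755), 0.55 in the left-over UMIs but 0.00 at equal nuclear depth. The cardiac actin actc1a (-0.02 ± 0.05) and the tropomyosin tpm4a (0.05 ± 0.07) lay near 0 with small errors. How large a difference in either would have passed was not tested. ACTA1, TTN and TNNI1 each stood for 2 IDs with UMIs in these files, so that reads of near-identical copies may be divided between them.

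Calcium handling genes lay on the negative side. All 8 tested members had a negative log2 fold change, with a median of -0.29 and 0 called, and 4 were lower on 3 of 3 plates, where 313 of all 648 genes were negative and 107 (16.5%) lower on 3 of 3. The 20 other draws gave medians of -0.26 to 0.08, all above the reported one, and the left-over UMIs gave -0.16. trdn, triadin, which anchors calsequestrin at the calcium release channel, gave 0.506, 0.661 and 1.82 UMIs per 10000 in detected and 2.69, 2.65 and 3.97 in absent cells. It was lower on 3 of 3 plates, from sums of 1, 2 and 7 UMIs against 20, 41 and 57. Its log2 fold change was -1.57 ± 0.49 (edgeR adjusted p = 0.565). trdn was negative in 20 of 20 draws and -1.20 in the left-over UMIs. The calcium pump atp2a2a (-0.03 ± 0.12), the calsequestrin CASQ2 (-0.06 ± 0.21) and the potassium channel subunit KCNV1 (-0.26 ± 0.20) were nearer to 0.

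No nuclear gene of energy metabolism passed the test, from which mitochondrial genes were left out. Of 76 tested nuclear genes of oxidative phosphorylation (OXPHOS), the respiratory chain and the ATP synthase, 0 were called in either direction, 42 were positive, 10 were higher and 13 lower on 3 of 3 plates, and the median was 0.03 (20 other draws -0.04 to 0.08). OXPHOS transcripts made up 8.92%, 9.99% and 9.16% of nuclear UMIs in detected and 9.05%, 9.06% and 9.11% in absent cells. The 19 ATP synthase subunits tested gave 12 positive and 7 negative values, 4 higher and 2 lower on 3 of 3 plates, and a median of 0.09, above the range of their other draws (-0.08 to 0.08). The 33 complex I subunits gave 16 positive and 17 negative values, 3 higher and 6 lower on 3 of 3 plates, and a median of -0.04. Of the ATP synthase genes that the rule of lowest p names, none passed. ATP5F1C gave 33.4, 43.6 and 46.7 UMIs per 10000 against 27.7, 36.6 and 35.5 (0.33 ± 0.11, edgeR adjusted p = 0.575), ATP5F1A gave 57.2, 52.6 and 46.7 against 33.7, 42.8 and 44.3 (0.36 ± 0.13), and ATP5MC3 gave 15.7, 14.5 and 11.4 against 9.41, 9.75 and 9.39 (0.53 ± 0.19). Only ATP5F1A of these was positive in 20 of 20 draws, and the left-over UMIs gave 0.11, 0.08 and 0.09. NDUFS1, a core subunit of complex I, gave 2.53, 5.62 and 5.45 UMIs per 10000 against 1.21, 3.29 and 3.55 (0.76 ± 0.33, adjusted p = 0.770).

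Glycolysis had 16 tested genes with a median of 0.07, and those with the most UMIs were GAPDH (-0.04 ± 0.07), ALDOA (0.09 ± 0.07), ENO3 (-0.01 ± 0.11) and TPI1 (-0.09 ± 0.12). The malate-aspartate shuttle, which carries reducing equivalents from glycolysis into mitochondria, had 5 tested genes with a median of -0.11: MDH1 (-0.13 ± 0.13), MDH2 (0.03 ± 0.10), GOT2 (0.39 ± 0.20), got2b (-0.16 ± 0.45) and SLC25A11 (-0.11 ± 0.34). Tricarboxylic acid cycle genes (17 tested) had a median of 0.01, fatty acid oxidation genes (11) of 0.10, and genes of oxygen storage and energy transfer (12) of 0.00, the last with myoglobin, mb, at 0.11 ± 0.05. None of the genes of these lists passed the test. nmrk2, a kinase that makes the precursor of NAD, gave 7.59, 7.60 and 4.15 UMIs per 10000 against 4.30, 3.68 and 3.06 (0.79 ± 0.30, edgeR adjusted p = 0.711), but was -0.11 at equal nuclear depth.

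No gene of protein synthesis passed the test either. Cytosolic ribosomal proteins had 70 tested genes, 44 of them negative, 20 lower and 6 higher on 3 of 3 plates, with 0 called and a median of -0.05, and the 20 other draws were all negative (-0.13 to 0.00). pabpc1a, which binds the poly(A) tails of mRNAs, gave 4.55, 6.94 and 8.05 UMIs per 10000 in detected and 14.4, 9.49 and 11.6 in absent cells. It was lower on 3 of 3 plates, as were 107 of all 648 genes (16.5%), and its log2 fold change was -0.74 ± 0.24 (edgeR adjusted p = 0.565). It was negative in 20 of 20 draws (-1.07 to -0.34) and -0.89 in the left-over UMIs. The other lower genes named by rank, si:ch73-308b14.1, ZNF106, FAM120A and si:dkey-153m14.1, had log2 fold changes of -0.23, -1.07, -1.51 and -0.42, and the remaining higher ones, PCBP4 and ENSDARG00000003933, had 0.79 and 0.55. None of these 6 passed the test.

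Of the 10 genes higher on 3 of 3 plates with the lowest p, 9 kept a positive sign in the left-over UMIs, 7 at equal nuclear depth and 3 in every draw. Of the 10 lower, 10 kept a negative sign in the left-over UMIs, 8 at equal nuclear depth and 8 in every draw. These counts describe genes chosen by their sign on the same cells and are not a test.

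**Figure D5:**
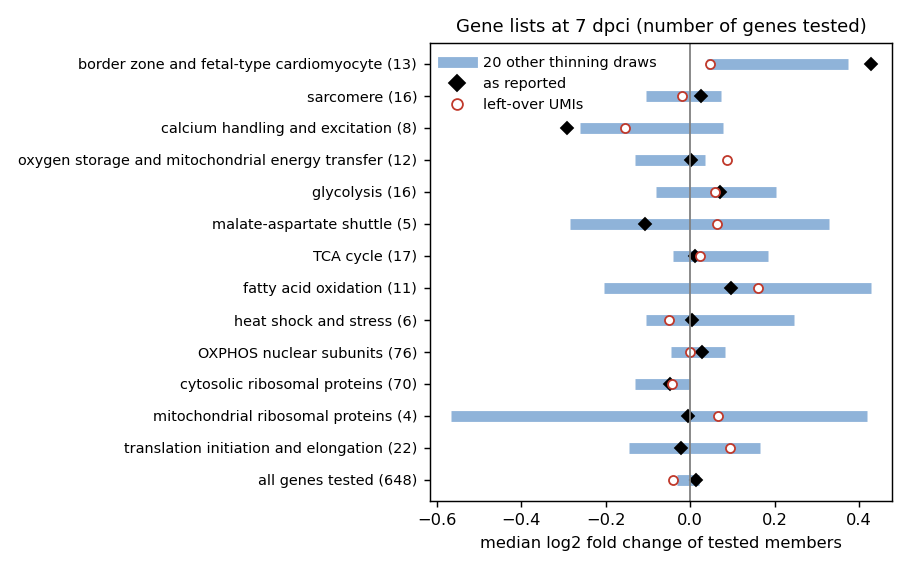
Median log2 fold change (detected against absent cells) of the tested members of each gene list with at least 4 tested genes, and of all 648 genes. Diamonds are the reported values, blue bars the range over 20 other thinning draws and open circles the left-over UMIs. Border zone genes (0.43) and calcium handling genes (-0.29) lie outside the range of their own draws, and the other lists lie within 0.11 of 0.

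Genes of division and of acute stress were scarce. Of the cell cycle list only the tubulin tubb4b could be tested (0.18 ± 0.38), and the list as a whole held 0.0860%, 0.0727% and 0.0467% of nuclear UMIs in detected and 0.0753%, 0.0445% and 0.0564% in absent cells. Heat shock genes (6 tested) had a median of 0.01. No immediate early or AP-1 gene, the first genes switched on by stimulation or by dissociation of tissue, reached the filter. Their sum was 17 UMIs in the detected cells of each plate and 13, 43 and 43 in the absent cells. That is 0.0860%, 0.0562% and 0.0441% against 0.0175%, 0.0278% and 0.0299% of nuclear UMIs, higher in detected cells on 3 of 3 plates. JUNB gave 7 of the 17 UMIs in the detected cells of plate 1, and NR4A1, SOCS3 and JUND led the list over all cells. The sum was higher in detected cells on 3 of 3 plates in 9 of the 20 other draws and lower on 3 of 3 in 1. At 1 and 3 dpci it had the other order, 0.203% in detected against 0.331% in absent cells and 0.164% against 0.237%. There the absent cells also held more markers of other cell types, whose part in that order was not tested. At 1 dpci macrophage markers made up 0.130% of nuclear UMIs in absent against 0.0235% in detected cells, endothelial or endocardial markers 0.231% against 0.0542%, and epicardial or fibroblast markers 0.345% against 0.103%. At 3 dpci the same lists gave 0.124% against 0.00850%, 0.152% against 0.0364% and 0.141% against 0.0389%.

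On the earlier plates some named genes had the sign of the 7 dpci fit and others did not. MYL7, negative at 7 dpci, had a log2 ratio of 0.11 at 1 dpci (0.06 to 0.17) and -0.03 at 3 dpci (-0.09 to 0.02), and trdn 0.02 (-0.70 to 0.73) and -0.21 (-1.16 to 0.69). Of the genes positive at 7 dpci, FHL1 was 0.48 (0.13 to 0.84) and 0.18 (-0.14 to 0.49), TBX20 0.55 (-0.13 to 1.25) and 0.23 (-0.55 to 1.00), and ENSDARG00000055618, the ACTA1 ID with more UMIs, 0.45 (0.31 to 0.59) and 0.21 (0.07 to 0.35), beside 0.21 ± 0.08 in the fit at 7 dpci (edgeR adjusted p = 0.755). The intervals of TBX20 at both times and of FHL1 at 3 dpci include 0. Apart from nppb above, the other genes positive at 7 dpci are not given for these plates. At 1 dpci 21 of the 22 cells low in cardiomyocyte markers were in the absent group, and their part in these ratios was not tested. All intervals are 95% for counting error, and with 1 plate at each time the differences from 7 dpci were not tested.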

How the data were processed

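The values the authors deposited are estimated counts of UMIs in each well, which their pipeline corrected for UMI collisions (4096 possible UMIs) and did not scale. The authors mapped reads to Zv9. Processing notes name BWA 0.6.2, and the annotation is not given in the sources used here. Total UMIs per 7 dpci plate were 662418 to 1779751, of which ERCC spike-ins took 43.5 to 55.4%. No doublet caller was run. Wells are named by position, so all 384 names recur on every plate.

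Values were rounded, ERCC removed, and cells of 1000 UMIs or more thinned without replacement to 1000 (seed 7). Sums per plate and group were fitted with edgeR 4.0.16 (R 4.3.3) by the quasi-likelihood F test with TMM scaling, the plate as block and Benjamini-Hochberg adjustment over 648 genes, two-sided. The pairing comes from the plates, since both groups of a pair are cells of 1 plate. DESeq2 1.42.0 was an alternative. Single values were compared by an exact sign-flip permutation test over plates (scipy), whose smallest p is 0.25. The code was tested on simulated data. Counting intervals are exact, at 95%.

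Names came from a gene table (14285 of 17997 IDs), with many zebrafish genes under a human symbol. The RefSeq table was used only for gene order beside nppa, and no coordinates or sequences were used. Members, lists and tests were chosen with earlier results of these data known. Named were the members of 4 lists, and the 10 genes in each direction with the largest change among those called, filled up by lowest p among genes of 1 direction on 3 of 3 plates, and in other lists the 4 with most UMIs. Some choices were made after seeing values: the mean share of 0.1% at which 2 unnamed IDs that vary with mitochondrial genes were counted as mitochondrial, the filter of 40 UMIs when a plate was left out, the absent group without nppa in all UMIs, the cutoffs of 300 mitochondrial UMIs and 2% marker share, the means without cells above the former, and the singling out of trdn, pabpc1a, CRIP2, TBX20, MT-ATP6, MT-CO1 and JUNB. 1 gene that the rule names is not reported here. Alternatives are given at the end.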

Additional observations from a re-analysis of the deposited data

Results flagged for a closer look

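Neither gene called at 7 dpci was lower in detected cells on the single 3 dpci plate. ENSDARG00000096145 had a log2 ratio of detected to absent cells of 0.28 at 3 dpci (95% interval -0.05 to 0.61, counting error only), against negative ratios on all 3 plates of 7 dpci. ENSDARG00000070212 had 0.0055 at 3 dpci (-0.17 to 0.18). Both intervals include 0, and the difference between the time points was not tested.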

How the results depend on the processing

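The number of genes called (2, both lower) was 2 without TMM and 3 by DESeq2, 1 with DESeq2 size factors, 0 with no replicate block, 5 (1 higher, 4 lower) at a filter of 20 UMIs and 119 (1 higher, 118 lower) with no filter. It was 1 without thinning, 0 at 2000 UMIs, 1 at 500 UMIs, 1 in the left-over UMIs and 0 for cells with at least 2 nppa UMIs. It was 0 with mitochondrial genes left out before thinning, 0 without cells above 3 times the median depth and 1 with the collision correction turned back. For absent cells without nppa in all UMIs (chosen after seeing the data) it was 1, and over 20 other draws 0 to 5 (0 to 2 higher, 0 to 3 lower). With mitochondrial genes kept in the fit it was 13, all lower. These were the same 2 genes and otherwise only mitochondrial IDs, whose levels are not independent of the grouping. Leaving out 1 plate gave 0 to 3 calls (0 to 1 higher, 0 to 3 lower): 0 without plate 1, 3 without plate 2 and 1, a higher gene, without plate 3. The causes were not tested. ENSDARG00000070212 was reversed (0.05) with mitochondrial genes left out before thinning.

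The left-over nppa difference was 2.69 to 3.98 per 10000 without 1 plate. The difference in mean mitochondrial share was -3.62 percentage points with at least 2 nppa UMIs, -7.99 at 2000 UMIs and 0.962 with mitochondrial genes left out, and that in median share 0.036, then 1.398 with at least 2 nppa UMIs and 1.51 with mitochondrial genes left out. The difference in median depth was 496 and 547 UMIs, and in median genes 31.5 and 55.3, with at least 2 nppa UMIs and at 2000 UMIs. At 500 UMIs and with mitochondrial genes left out, the depth difference was 19 ± 618 and 225.5 ± 516 UMIs (SD), and the gene difference 16 and 18.8. Each of these 4 depth differences was positive on 2 of 3 plates. Of 318 list medians under alternatives, 72 moved by more than the spread over plates. The 94 detected cells held 144 nppa UMIs, and how far depth limits the calls was not tested.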
